A study of Mus musculus with 12 samples.

Results

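Dorsomorphin (DM), a small-molecule inhibitor of AMP-activated protein kinase (AMPK), was compared with its control in oocytes of mouse primary follicles by RNA sequencing. The comparison takes in 6 of the 12 libraries of the series, chosen by the follicle stage and treatment on their labels, with 3 DM libraries and 3 control libraries. All came from F1 females of C57Bl/6j x CBA/J parentage, which the study describes as 7 to 8 days old, and whose ovaries it describes as cultured for 5 days with DM or with its solvent DMSO. The labels call the control sham and the material in vivo. The study tested DM from 5 µM upwards with 10 µM as its lead concentration, and the concentration behind the captured oocytes is not given in the sources used here. Each library held 200 oocytes that were cut by laser capture from stained paraffin sections and pooled, and their RNA was linearly amplified. The labels give no animal or culture for a replicate and no batch, so a p-value here measures the spread between these libraries, which may be technical.

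A primary follicle is an oocyte that has left dormancy and is surrounded by a single layer of cuboidal granulosa cells. Leaving dormancy is driven in the oocyte by PI3K, AKT and mTOR signalling, which inactivates the transcription factor FOXO3 and raises protein synthesis. AMPK senses low cellular energy and opposes mTOR, and DM is also known to inhibit the BMP type I receptors. The genes of these pathways, and those of the ribosome, proteasome, mitochondrion, cell cycle, chromatin and oocyte identity, were therefore followed as lists beside a survey of all genes.

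The 6 libraries differed more from each other than the 2 groups did. Total counts were between 14034586 and 42639326. Genes with at least 1 count numbered 7825, 7326 and 7302 in the DM libraries, and 10112, 9793 and 6810 in the controls. The 100 most abundant genes took 35.6%, 48.5% and 43.7% of the counts after DM, and 26.0%, 24.9% and 51.2% in the controls. Control libraries 1 and 2 thus held the most genes, and control library 3 held fewer than any DM library. The means were 7484 ± 295 genes after DM and 8905 ± 1821 in controls (SD, n = 3 each). They differed by more than the SD of the DM libraries and by less than that of the controls. The exact two-sided permutation p was 0.40, adjusted over 3 summaries 0.60, with 0.10 the smallest p that 3 against 3 can give. The share of the 100 most abundant genes gave the same p-values, and the share of mitochondrial counts, which was from 0.133% to 0.404% and nearly all *mt-Rnr2*, gave p = 0.70 by the same exact test. Pearson correlations of log2 CPM (counts scaled to a fixed library total) between libraries were from 0.19 to 0.45, and the highest was that of control libraries 1 and 2.

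Counts fell into a low and a high range. Among the 245 genes with at least 100000 counts in 1 of the libraries, none was at 0 in another, yet the median of their lowest count was 49. In the 2029 genes with a highest count from 10000 to 100000, the median of the lowest was 7, and 48.4% of the counts in the other 5 libraries were under 1/1000 of the gene's highest. The low counts of a gene were thus larger where its highest count was larger, and where these low counts come from was not tested. A gene is called present in a library below if it had at least 10 counts there and at least 1/1000 of its highest count in any of the 12 libraries of the series. This limit was chosen after the values had been seen.

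**Figure D1:**
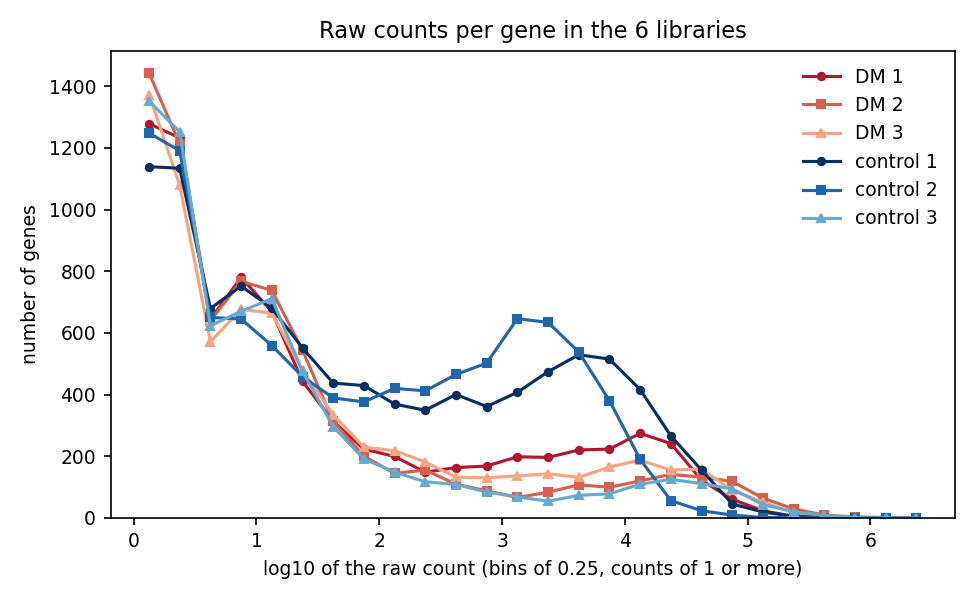
Number of genes (vertical axis) by the log10 of their raw count (horizontal axis, bins of 0.25) in each of the 6 libraries, DM in red and control in blue. Every library has its largest bins at the lowest counts, and control libraries 1 and 2 have a second, broad peak above a log10 of 3 that reaches 529 and 646 genes a bin, while the peak in the high range stays at or below 274 genes in DM library 1 and lower still in the other 3.

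Most genes that were present in primary-follicle oocytes were present in few of the libraries. Of 9820 genes present in any library, 3767 (38.4%) were present in exactly 1, and 315 (3.21%) were present in all 6. In all 3 DM libraries 631 genes were present, and in all 3 controls 1246. There were 12 genes (0.122%) present in every DM library and no control, and 221 (2.25%) present in every control and no DM library. Present genes numbered 3293, 2377 and 2948 in the DM libraries and 6135, 5906 and 2113 in the controls, so that 919 genes were present in control libraries 1 and 2 and in no other. The part of the library sizes and makeup in these counts was not tested. In pooled oocytes, fewer cells with a transcript and less of it per cell cannot be told apart.

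**Figure D2:**
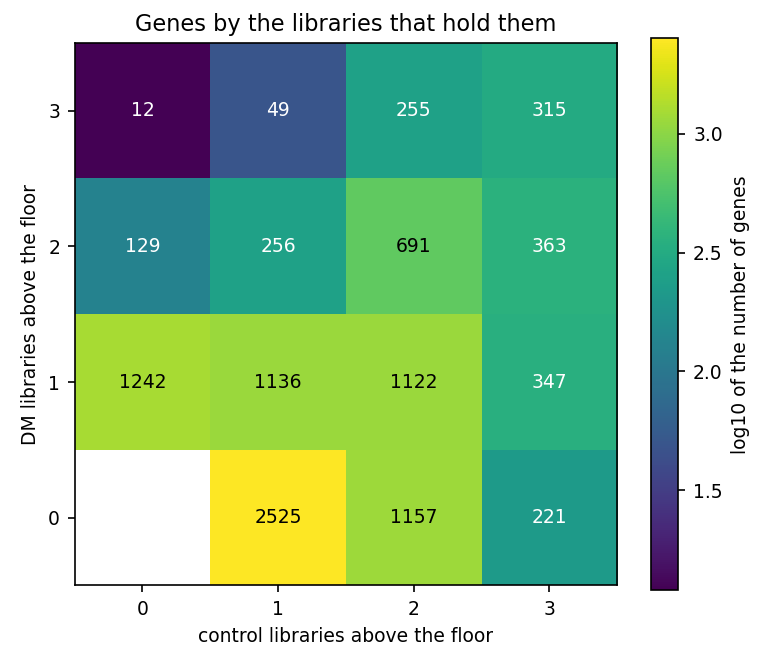
Number of genes present (at least 10 counts and 1/1000 of the gene's highest count) by how many of the 3 control libraries (horizontal axis) and of the 3 DM libraries (vertical axis) held them, coloured on a log10 scale. Genes of 1 control library (2525), of 1 DM library (1242) and of 2 control libraries (1157) fill the largest fields, and 12 genes lie in the corner of all DM and no control libraries.

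The 12 genes present after DM alone included *Gata6*, a transcription factor of granulosa and theca cells, with 236, 5427 and 378 counts after DM against 1, 1 and 2 in the controls. *Zfp503*, a zinc finger protein, had 101, 1918 and 41 counts against 2, 4 and 3. In both genes DM library 2 was the highest and the groups did not overlap. *Abcb1b*, a multidrug efflux transporter, had 26, 140 and 10 counts after DM and 0 in each control. These genes were chosen after their values were seen.

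No gene passed the test. Of 4181 genes tested by edgeR's quasi-likelihood method, 0 had an adjusted p under 0.05 (0.0%), and the smallest adjusted p was 0.395, shared by 348 genes. DESeq2, with its own scaling and without edgeR's filter on low counts, tested 9540 genes. Of these, 594 had an adjusted p under 0.05, and 413 of the 594 were higher after DM. At an unadjusted p under 0.05, edgeR gave 508 genes (12.2%), with 169 higher (4.04%) and 339 lower (8.11%) after DM. The biological coefficient of variation was 1.86. Log2 fold changes had a median size of 3.29 and a median SE of 3.14, so that a typical difference was about as large as its error. A further 51220 genes did not pass edgeR's filter on low counts and were not tested in that fit.

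Single libraries carried most of the differences. In 3548 of the 4181 tested genes (84.9%) a single library held over 50% of the CPM summed over the 6 libraries, and in 27.5% it held over 90%. Of the 169 genes with an unadjusted p under 0.05 that were higher after DM, 150 had over 75% of the DM sum in 1 library, and 84 of the 169 were highest in DM library 2. Of the 339 that were lower, 266 had over 75% of the control sum in 1 library, and 215 of the 339 were highest in control library 3. Without control library 3 the count of genes at an unadjusted p under 0.05 was 1165 of 6202 tested (92 higher). Without control library 1 it was 330 of 5034 (39 higher), and without control library 2 it was 326 of 4848 (64 higher). With low counts beside a high library set to 0 it was 215 of 3704, and 4 of the 215 were higher.

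The groups did not overlap in 555 tested genes (13.3%), of which 120 were higher after DM (2.87%) and 435 lower (10.4%). Of the lower ones 203 were highest in control library 3, 135 in control library 1 and 97 in control library 2. The split moved with the scaling: with the size factors of DESeq2, 230 were higher and 270 lower, and with library size alone 53 were higher and 492 lower. Over the tested genes log2 fold changes had a median of 0.31 with TMM scaling, 2.04 with DESeq2's size factors and -0.96 with library size alone, so that directions and overlaps are given below with TMM, and a list is read against the median of all genes under the same scaling.

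Among the genes higher in every DM library than in every control and not carried by a single library, 8 had the smallest p. *Snx2*, a sorting nexin of the retromer that returns receptors from endosomes, had 27976, 41621 and 13434 counts after DM against 33, 623 and 17 in the controls. Its log2 fold change was 7.70 (SE 3.92, unadjusted p = 0.0495, adjusted p = 0.396). Every DM library was far above every control, of which control library 2 was the highest.

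*Mob1a* (chromosome 6, 83326016 to 83343776, plus strand, GRCm38), the co-activator of the LATS kinases in the Hippo pathway, was the most even of them, with 5292, 3775 and 3417 counts after DM against 163, 4 and 7 in the controls. On the TMM scale this was 180, 210 and 158 CPM against 2.12, 0.108 and 0.592 CPM. The log2 fold change was 7.59 (SE 4.10, adjusted p = 0.396), and over the fits that left out a library it was between 7.05 and 8.97.

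*Tmsb4x* (chromosome X, 167207093 to 167209315, minus strand), which encodes thymosin beta 4, a protein that sequesters actin monomers, had 70861, 233588 and 47197 counts after DM against 18016, 1031 and 49 in the controls. *Usp5* (chromosome 6, 124815019 to 124829484, minus strand), a deubiquitinase that takes apart free ubiquitin chains, had 10813, 49417 and 26705 counts against 1181, 26 and 180. Their log2 fold changes were 6.05 (SE 3.12) and 7.12 (SE 3.79), with an adjusted p of 0.396 for each. In both genes the controls spread over more than the DM libraries did.

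The other 4 were *Crim1*, a membrane protein that binds BMPs, *Ttc3*, a ubiquitin ligase, the processed pseudogene *Gm5526* and *Gm49450*. *Crim1* had 11168, 2344 and 332 counts after DM against 117, 37 and 4 in the controls. *Ttc3* had 6721, 17092 and 26611 counts against 1383, 22 and 22. The exons of *Gm49450* overlap those of *Tuba1a* and *Tuba1b* on the same strand, and reads of these genes could not be told apart. The 4 had log2 fold changes from 5.37 to 7.51 and adjusted p-values of 0.396 or 0.397.

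**Figure D3:**
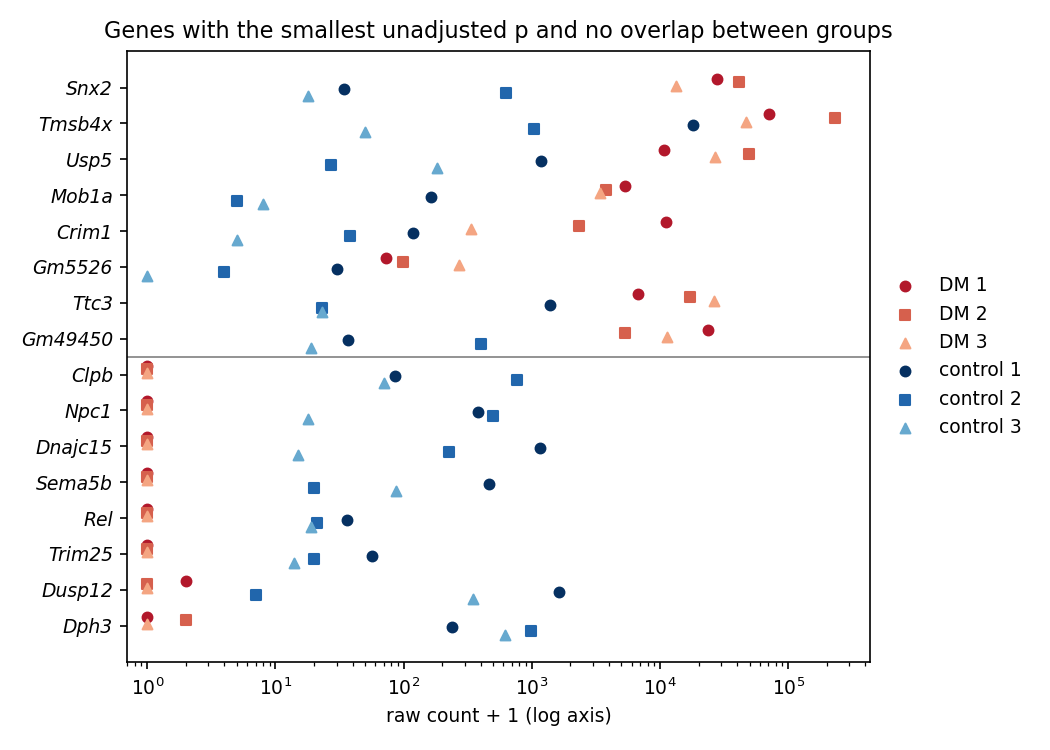
Raw counts plus 1 on a log axis of the 8 genes higher and the 8 genes lower after DM that had the smallest unadjusted p among genes with no overlap between groups and at most 75% of the higher group's CPM in 1 library, 1 point per library, DM in red and control in blue. The lower genes are at 0 or 1 count in all DM libraries, while their counts in the controls lie between 6 and 1638, and no gene had an adjusted p under 0.05.

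Of the 8 genes chosen by the same rule on the other side, 6 were at 0 in all 3 DM libraries. *Clpb* (chromosome 7, 101663633 to 101795506, plus strand), a mitochondrial protein disaggregase, had 85, 768 and 69 counts in the controls, and was at least 67.8-fold lower after DM when 3 counts are set for each DM library. *Npc1*, the lysosomal cholesterol exporter, had 377, 500 and 17 counts in the controls and was at least 48.6-fold lower. *Dnajc15*, a co-chaperone of protein import into mitochondria, had 1163, 223 and 14 counts and was at least 54.7-fold lower. Without 1 of the control libraries these bounds were as low as 25.5-fold for *Clpb*, 23.3-fold for *Npc1* and 26.5-fold for *Dnajc15*. In each of them the control libraries differed more than 10-fold in counts, with all above the DM libraries.

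*Sema5b*, a semaphorin, had 459, 19 and 86 control counts and was at least 33.7-fold lower. *Rel*, a subunit of NF-kappa-B, had 35, 20 and 18 control counts, and *Trim25*, a ubiquitin ligase of antiviral signalling, had 56, 19 and 13. The bounds of these 2 genes were 6.17-fold and 5.74-fold, and that of *Rel* was 3.66-fold at the lowest with a library left out. *Dusp12*, a phosphatase, had 1, 0 and 0 counts after DM against 1638, 6 and 347 in the controls, and *Dph3*, which takes part in making diphthamide, had 0, 1 and 0 counts against 236, 990 and 621. The 8 genes had unadjusted p-values from 0.00506 to 0.0118 and an adjusted p of 0.395 each by edgeR's test, and DESeq2 gave an adjusted p under 0.05 for 6 of the 8, not for *Rel* and *Trim25*. The 12-library fit of the series gave no gene with an adjusted p under 0.05 either.

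Cell cycle genes held the lowest median of the lists with TMM scaling. Of 31 members 15 were tested, of which 2 were higher and 13 lower after DM, with a median log2 fold change of -3.72 against 0.31 over all tested genes. Groups did not overlap in 4 members, all lower, which is 26.7% of the tested members against 10.4% of all tested genes, and 2 members had an unadjusted p under 0.05, both lower, against 8.11% of all. With DESeq2's size factors 1 member was free of overlap. The median was -4.03 relative to that of all genes, and stayed below it under the other 2 scalings, at -3.7 or lower. The DM libraries held 11, 8 and 3 present members and the controls 15, 16 and 12. The 16 members not tested included the cyclins *Ccna1*, *Ccne1* and *Ccnb3*, which had no count in the 6 libraries.

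*Mcm4* (chromosome 16, 15623897 to 15637400, minus strand), a subunit of the replicative helicase, had 42, 51 and 33 counts after DM against 46302, 1633 and 195077 in the controls. Its log2 fold change was -11.53 (SE 3.91), with an unadjusted p of 0.00322 and an adjusted p of 0.395. The controls themselves spread over more than 100-fold, with 96.2% of their CPM in control library 3. Without that library the values of *Mcm4* still did not overlap, and over the leave-one-out fits the log2 fold change was between -12.16 and -7.21.

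The genes *Mcm2*, *Mcm6* and *Mcm3* of other helicase subunits were in the low range in most DM libraries. *Mcm6* was also in that range in control library 3, and *Mcm3* in control libraries 1 and 2. *Mcm2* had 149, 7 and 4 counts after DM against 5250, 725 and 530 in the controls. *Mcm6* had 9, 22 and 10 against 1436, 2292 and 11, and *Mcm3* had 1, 167 and 2 against 6, 3 and 14695. *Ccnd2*, the D-type cyclin of granulosa cells, had 27, 14 and 5 counts after DM against 409, 516 and 249 in the controls, with a log2 fold change of -4.38 (SE 3.03, adjusted p = 0.462). The proliferation marker *Mki67* was at 8, 26 and 0 counts after DM against 30, 10 and 10 in the controls.

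Cohesin and DNA repair genes were mixed. *Rad21*, a cohesin subunit, had 14, 3 and 6 counts after DM against 196, 2124 and 22854 in the controls (log2 fold change -11.06, SE 4.68, adjusted p = 0.395). The other cohesin genes overlapped: *Smc1a* had 1710, 56 and 126518 counts against 12073, 12492 and 6317, and *Smc3* had 37, 34 and 30700 against 41081, 11294 and 26. Of 20 genes of meiotic chromosomes 5 were tested, 3 higher and 2 lower. Synaptonemal complex genes were scarcely counted after DM: *Sycp1* had 1, 1 and 1 counts against 6010, 197 and 2, and *Sycp3* had 2, 1 and 0 against 2, 3845 and 3. In both the highest count was in a single control library and the groups met in the low range.

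Of 18 DNA repair genes 12 were tested, 9 higher and 3 lower, with a median log2 fold change of 2.92, and the 2 whose groups did not overlap were both lower (16.7%, against 10.4% of all tested genes). With DESeq2's size factors no member was free of overlap. *Msh6*, of mismatch repair, had 1, 4 and 0 counts after DM against 539, 43 and 164 in the controls (log2 fold change -6.39, SE 3.20, adjusted p = 0.396). *Atm*, the DNA damage kinase, had 1, 1 and 2 counts against 61, 10 and 17. Several members above the median owed it to a single DM library: *Pms2* had 5659, 22 and 13 counts after DM, and *Xrcc6* had 2, 2 and 8766.

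*Trp63*, whose product p63 guards the genome of dormant oocytes, had 2, 12 and 3 counts after DM against 4843, 1007 and 13671 in the controls (log2 fold change -10.47, SE 4.68, adjusted p = 0.395). *Mdm2*, the ligase that degrades p53, had 3, 0 and 5 counts against 19, 234 and 15. Both had no overlap and were lower after DM, which is 33.3% of the tested members of their list, against 10.4% of all tested genes. With DESeq2's size factors 1 member of the list was free of overlap on each side. Of the 20 genes of apoptosis and p53, 6 were tested, 3 in each direction. The pro-apoptotic *Bax* had 28, 0 and 0 counts after DM against 65, 0 and 0 in the controls.

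Ribosomal protein genes gave 30 members present in all 6 libraries, the largest number of any list. As a share this was 36.1% of the members present anywhere, against 41.2% of chaperone and 40.0% of stroma and theca genes. Of 84 genes for cytosolic ribosomal proteins 77 were tested, 54 higher and 23 lower after DM, with a median log2 fold change of 1.30 against 0.31 over all genes, and it lay above that of all genes under each of the 3 scalings, by 0.76 to 1.22. In 14 members the groups did not overlap with DM higher, and in 3 with DM lower, which is 18.2% and 3.9% of the tested members, against 2.87% and 10.4% of all tested genes. With DESeq2's size factors these counts were 19 and 2, and with library size alone 7 and 4. No member had an unadjusted p under 0.05. Present members numbered 72, 58 and 62 after DM and 81, 79 and 44 in the controls. The list took 5.15%, 6.66% and 4.55% of all counts in the DM libraries and 3.60%, 4.97% and 3.76% in the controls, so the groups overlapped.

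*Rps4x*, a small-subunit protein gene, had 102575, 180434 and 100610 counts after DM against 25418, 9923 and 84 in the controls (log2 fold change 4.91, SE 2.94, adjusted p = 0.408). *Rpl11* had 58353, 83994 and 16564 counts against 33971, 7934 and 133. In both genes control library 3 was in the low range and controls 1 and 2 were not. The opposite order held for *Rpl26*, with 3, 3 and 51 counts after DM against 188, 276 and 4335 in the controls, and for *Rps7*, with 887, 24 and 108 against 28013, 10365 and 16296. Ribosomal protein genes have many processed pseudogenes, and how the counting shared reads among them is not given in the sources used here.

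**Figure D4:**
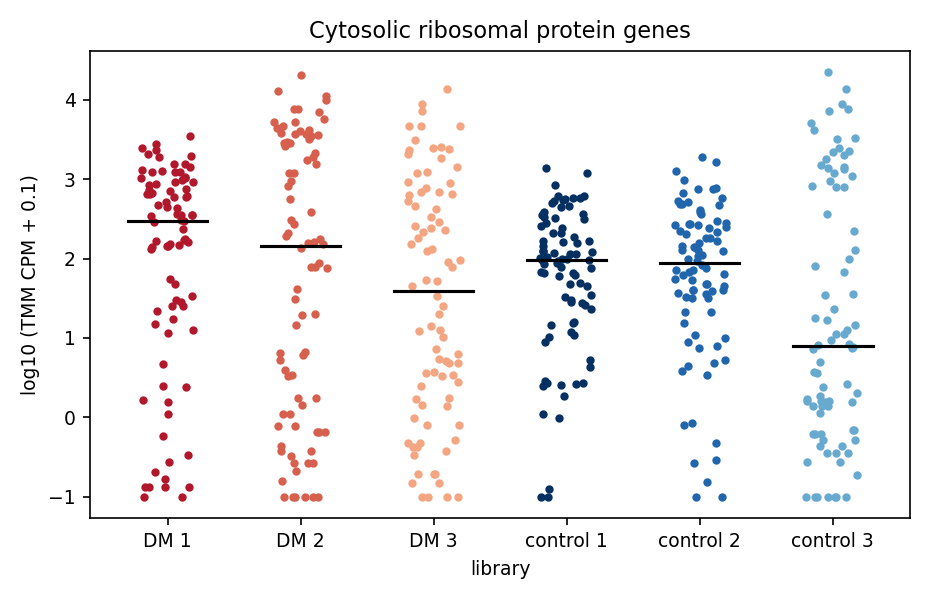
Log10 of TMM-scaled CPM plus 0.1 for the 84 cytosolic ribosomal protein genes, 1 point per gene and a black bar at the median, in the 6 libraries. The medians were 298, 144 and 39.1 CPM after DM and 96.4, 87.4 and 7.82 CPM in the controls, and in each library some genes are near 0 while others are above 1000 CPM.

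Initiation factors split. Of 51 genes with Eif names 33 were tested, 18 higher and 15 lower, with a median of 0.57. *Eif4e2*, a cap-binding protein that represses translation, had 15, 13 and 21 counts after DM against 19615, 914 and 32313 in the controls (log2 fold change -10.41, SE 4.46, adjusted p = 0.395). *Eif4e*, the cap-binding factor of initiation, had 19, 30 and 28 counts against 66326, 14538 and 28, so that DM libraries and control library 3 were alike in raw counts. *Eif3e*, of the eIF3 complex, was on the other side with 7300, 23023 and 14902 counts after DM against 2924, 2551 and 19 in the controls.

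In the PI3K and mTOR list 16 of 20 genes were tested, 8 in each direction, and the 5 with no overlap were all lower after DM (31.2%, against 10.4% of all tested genes), as were the 2 with an unadjusted p under 0.05 (against 8.11% of all). *Akt2*, a protein kinase of the pathway, had 5, 15 and 43 counts after DM against 5581, 3366 and 14541 in the controls (log2 fold change -8.86, SE 4.38, adjusted p = 0.396). *Akt1* overlapped, with 1134, 4269 and 23 counts against 11588, 6007 and 11. *Eif4ebp1*, the repressor of eIF4E that mTOR inactivates, had 2, 1 and 4 counts against 1806, 1509 and 11. *Mtor* had 10, 102 and 266 counts after DM against 7019, 3450 and 499 in the controls. With DESeq2's size factors 4 members did not overlap with DM lower and 1 with DM higher.

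Of 16 AMPK genes 5 were tested, 3 higher and 2 lower, with a median of 0.21, which was above that of all genes with DESeq2's size factors and below it with the other 2 scalings. *Prkab1*, the beta 1 subunit, had 2, 9 and 3 counts after DM against 7637, 70 and 110 in the controls (log2 fold change -7.27, SE 3.65, adjusted p = 0.396), with 89.9% of the control CPM in 1 library, and its groups overlapped with DESeq2's size factors. The catalytic subunit gene *Prkaa1* had 4, 3 and 0 counts against 618, 3839 and 3, and *Prkaa2* was at 0 after DM and had 274, 0 and 0 counts in the controls. *Acaca*, which encodes the acetyl-CoA carboxylase that AMPK phosphorylates, had 2627, 8150 and 1105 counts against 3495, 5779 and 12. The activating kinase *Stk11* (LKB1) had 0, 3 and 1 counts against 27, 3547 and 1, and its partner *Cab39* had 2 to 19 counts in each library; neither was tested.

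Of 24 Wnt and Foxo genes 12 had no count in the 6 libraries and 3 were tested. *Ctnnb1*, which encodes beta-catenin, had 2946, 236140 and 247719 counts after DM against 12457, 30781 and 141 in the controls (log2 fold change 4.62, SE 2.79, adjusted p = 0.410). *Foxo3* had 29, 22 and 5751 counts against 45329, 12904 and 30, and *Foxo1* had 2673, 901 and 8 against 2196, 150 and 1. The groups overlapped for all 3. No Wnt ligand gene was in the high range in more than 1 library of a group apart from *Wnt6*, with 0, 2 and 0 counts after DM against 363, 1399 and 0 in the controls.

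BMP pathway genes were thinly counted. Of 21 members 6 were tested, all higher after DM, with a median of 3.44, none with an unadjusted p under 0.05 and all with overlap. *Smad5*, which carries the BMP signal, had 23734, 15 and 15 counts after DM against 46, 171 and 8 in the controls, and *Bmpr1a*, a type I receptor, had 17, 7 and 17749 against 18, 668 and 11. In each the direction came from a single DM library. The target genes *Id2* and *Id3* had 1, 1 and 5 counts against 15691, 4117 and 1, and 2, 11 and 0 against 196, 140 and 0. *Id1* went the other way, with 1028, 0 and 1 counts after DM and 0 in each control. *Id4* had no count in any library, and none of these target genes was tested. In the Hippo list 7 of 16 genes were tested, 3 higher and 4 lower; besides *Mob1a*, *Wwtr1*, the co-activator TAZ, had 46, 36576 and 2 counts after DM against 55, 19 and 2 in the controls, with 1 DM library behind its unadjusted p.

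Proteasome genes included 39 members, of which 24 were tested, 17 higher and 7 lower, with a median of 1.72. The 3 with no overlap were all lower after DM (12.5%, against 10.4% of all tested genes), and with DESeq2's size factors 3 were higher and 2 lower. *Psmb2* and *Psmb7*, which encode beta subunits of the core particle, had 9, 8 and 14 against 24919, 1896 and 16 counts, and 6, 10 and 8 against 16319, 2052 and 10 (log2 fold changes -8.06 and -7.88, adjusted p = 0.396 each). On raw counts these groups were set apart by controls 1 and 2 and touched in control library 3. Present proteasome genes numbered 8, 12 and 14 after DM and 29, 23 and 5 in the controls.

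Of 77 nuclear genes of oxidative phosphorylation 26 were tested, 16 higher and 10 lower, with a median of 0.33, close to that of all genes. *Cox7a2l*, a factor of respiratory supercomplex assembly, had 28, 18 and 9 counts after DM against 539, 1875 and 25883 in the controls (log2 fold change -9.88, SE 4.45, adjusted p = 0.395). *Cox6a1*, a subunit of cytochrome c oxidase, had 1, 11 and 0 counts against 213, 25 and 358. Both were lower in every DM library than in every control, and they were the only members with no overlap. This is 7.69% of the tested members, below the 10.4% of all tested genes. With DESeq2's size factors no member of the list was free of overlap. The 13 protein-coding genes of the mitochondrial genome had 0 to 288 counts in a library, and 6 had no count in any of the 6.

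Of 28 genes of glycolysis and the TCA cycle 23 were tested, 13 higher and 10 lower. *Mdh1*, the cytosolic malate dehydrogenase, had 86, 16 and 11 counts after DM against 6464, 6157 and 56142 in the controls (log2 fold change -10.17, SE 4.24, adjusted p = 0.395). *Ldha*, a subunit of lactate dehydrogenase, was higher after DM, with 518, 162 and 5591 counts against 17, 65 and 2 (log2 fold change 7.05, SE 3.81, adjusted p = 0.396). *Gapdh* overlapped, with 79, 722 and 8917 counts against 1802, 8819 and 36822, a spread of over 100-fold within the DM group for a gene that every cell uses.

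Of 19 lipid genes 12 were tested, 4 higher and 8 lower, with a median of -1.14. *Srebf2*, the transcription factor of cholesterol synthesis, had 9, 4 and 8 counts after DM against 7193, 2304 and 33 in the controls (log2 fold change -7.44, SE 3.73, adjusted p = 0.396). *Hadha*, of mitochondrial fatty acid oxidation, had 3, 4 and 12 counts against 6381, 79 and 59. *Fasn*, the fatty acid synthase, overlapped, with 2113, 17 and 41 counts against 4294, 539 and 20072.

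Of 22 genes of autophagy and the lysosome 11 were tested, 2 higher and 9 lower, with a median of -2.58, which relative to all genes was -2.89, and -2.76 and -3.91 under the other 2 scalings. The 3 with no overlap were lower after DM (27.3%, against 10.4% of all tested genes), and with DESeq2's size factors 1 was higher and 2 lower. *Atg5*, needed to build autophagosomes, had 8, 7 and 11 counts after DM against 10637, 3121 and 11 in the controls. *Lamp2*, a lysosomal membrane protein, had 5, 1 and 5 counts against 169, 158 and 88 (log2 fold change -4.88, SE 2.85, adjusted p = 0.397). *Ulk1*, the kinase that AMPK activates to start autophagy, had 12, 1 and 23 counts against 1261, 232 and 242. *Gabarap* had 4208, 61 and 44 counts against 17409, 3257 and 38700, with 1 DM library within the range of the controls.

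Chromatin genes had 19 of 26 members tested, 11 higher and 8 lower, with a median of 2.45. Some of the higher ones rested on a single DM library: *Suz12* and *Bmi1*, of the Polycomb complexes, had 46870, 15 and 17, and 51590, 16 and 26 counts after DM. The 3 members with no overlap were lower after DM (15.8%, against 10.4% of all tested genes). With each of the other 2 scalings 3 members were also lower with no overlap, but these were not all the same genes. *Dnmt3a*, the methyltransferase that sets methylation in growing oocytes, had 33, 9 and 8 counts against 2126, 9366 and 21, and *Kdm5b*, a histone H3K4 demethylase, had 70, 10 and 6 against 15058, 4513 and 1210 (log2 fold changes -7.13 and -7.02, adjusted p = 0.396 and 0.397). *Tet3*, which oxidises 5-methylcytosine, had 2530, 223 and 511 counts against 18125, 3589 and 21287. The groups of *Dnmt3a* overlapped with library size, and those of *Tet3* with DESeq2's size factors.

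Of 26 cytoskeletal genes 21 were tested, 13 higher and 8 lower, and 3 did not overlap in each direction. This is 14.3% of the tested members each, against 2.87% higher and 10.4% lower among all tested genes. With DESeq2's size factors 5 were higher and 3 lower, and with library size alone 0 were higher and 2 lower. *Tubb2a* (chromosome 13, 34074274 to 34078007, minus strand), a beta tubulin gene, had 8, 9 and 15 counts after DM against 20142, 6229 and 45930 in the controls (log2 fold change -11.51, SE 4.51, adjusted p = 0.395). Its lowest control held over 400 times the counts of its highest DM library. *Tubb5*, another beta tubulin, lay on the other side, with 45202, 109592 and 26307 counts after DM against 50404, 14900 and 184 in the controls. *Myl12a*, a myosin light chain gene whose exons overlap *Myl12b* on the same strand, had 12, 7 and 12 counts against 1870, 7237 and 189. Among 18 chaperone genes 15 were tested, 8 higher and 7 lower, with none free of overlap, against 13.3% of all tested genes.

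The label of the cells was checked against marker genes. Of 13 markers of oocyte identity 1, 4 and 5 were present in the DM libraries and 9, 8 and 4 in the controls. *Ddx4*, the germ cell helicase, had 13, 47451 and 303 counts after DM against 7847, 4235 and 15 in the controls, and *Kit* had 1514, 55 and 8 against 3559, 13806 and 20. *Dppa3*, *Pou5f1* and *Sohlh1* were at 0 in all 3 DM libraries and *Sohlh2* too, and these 4 had at most 21 counts in a control. Summed CPM of the list was 52.6, 3704 and 147 after DM and 1138, 637 and 972 in the controls (exact permutation p = 1.0). In DM library 1 *Kit* was the 1 member present, so the oocyte label of that library rests on a single marker here.

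Markers of the growing oocyte, which primary-follicle oocytes should hold, were sparse. Of 17 markers 0, 3 and 9 were present in the DM libraries and 13, 9 and 6 in the controls, with sums of 1.05, 8.90 and 167 CPM against 118, 53.2 and 94.6 CPM (exact permutation p = 0.70). *Gdf9*, the growth factor of the oocyte, had 0, 0 and 2389 counts after DM against 1095, 707 and 4 in the controls. *Zp3*, of the zona pellucida, had 0, 0 and 255 counts against 98, 13 and 20. *Zar1*, an RNA-binding maternal factor, was the only member free of overlap, though not with DESeq2's size factors. This is 12.5% of the tested members, against 10.4% of all tested genes. It had 0, 1 and 38 counts after DM against 1061, 285 and 726 in the controls (log2 fold change -5.50, SE 3.32, adjusted p = 0.410). Of 23 germline RNA genes 7 were tested, 2 higher and 5 lower, and 1 had no overlap (14.3%, against 10.4% of all tested genes). This was *Cnot7*, a deadenylase, with 7, 6 and 7 counts after DM against 6885, 2152 and 10 in the controls.

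Markers of stroma and of granulosa cells reached higher sums in each library than oocyte identity or growing oocyte markers, each list taken alone. The margin over oocyte identity was small in control library 1 for stroma and theca (1175 against 1138 CPM). It was also small in control library 2 for granulosa (673 against 637 CPM). The stroma and theca list had sums of 11690, 7929 and 3570 CPM after DM and 1175, 1153 and 17080 CPM in the controls. *Col1a1* had 71671, 94147 and 39040 counts after DM against 22215, 20979 and 168895 in the controls, while the steroidogenic theca markers *Cyp17a1*, *Star* and *Insl3* were at 0 in all 6. Granulosa markers summed to 1127, 26590 and 2196 CPM after DM and 2519, 673 and 21170 CPM in the controls. *Foxl2*, a transcription factor of granulosa cells, made up 99.2% of the sum in DM library 2 and 90.6% in control library 3, with 4084, 474295 and 6807 counts after DM against 10775, 135 and 226837 in the controls, and *Fshr*, *Cyp19a1* and *Inhba* were at 0 in all 6. *Inha*, the inhibin alpha subunit, had 19, 10 and 19 counts against 703, 1054 and 4944 (log2 fold change -7.77, SE 4.08, adjusted p = 0.396).

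The surface epithelium list was the only 1 of 6 marker lists with no overlap, at 239, 1620 and 14.7 CPM after DM and 13.8, 0.566 and 2.96 CPM in the controls (exact permutation p = 0.10, adjusted over the 6 lists 0.60). With library-size CPM the groups overlapped, at 256, 683 and 9.04 after DM and 31.2, 1.5 and 1.13 in the controls (exact permutation p = 0.20). The libraries owed it to different genes, *Lgr5* with 6992 counts in DM library 1, *Krt19* with 14970 and *Krt7* with 14117 in DM library 2, and *Muc16* with 283 in DM library 3. *Krt19*, a keratin, was at 24 and 19 counts in the other DM libraries and at 23, 5 and 5 in the controls. Blood and endothelial markers stayed under 60 CPM in sum, with the haemoglobin genes and *Tek* at 0. The part of these other cell types in the differences above was not tested.

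**Figure D5:**
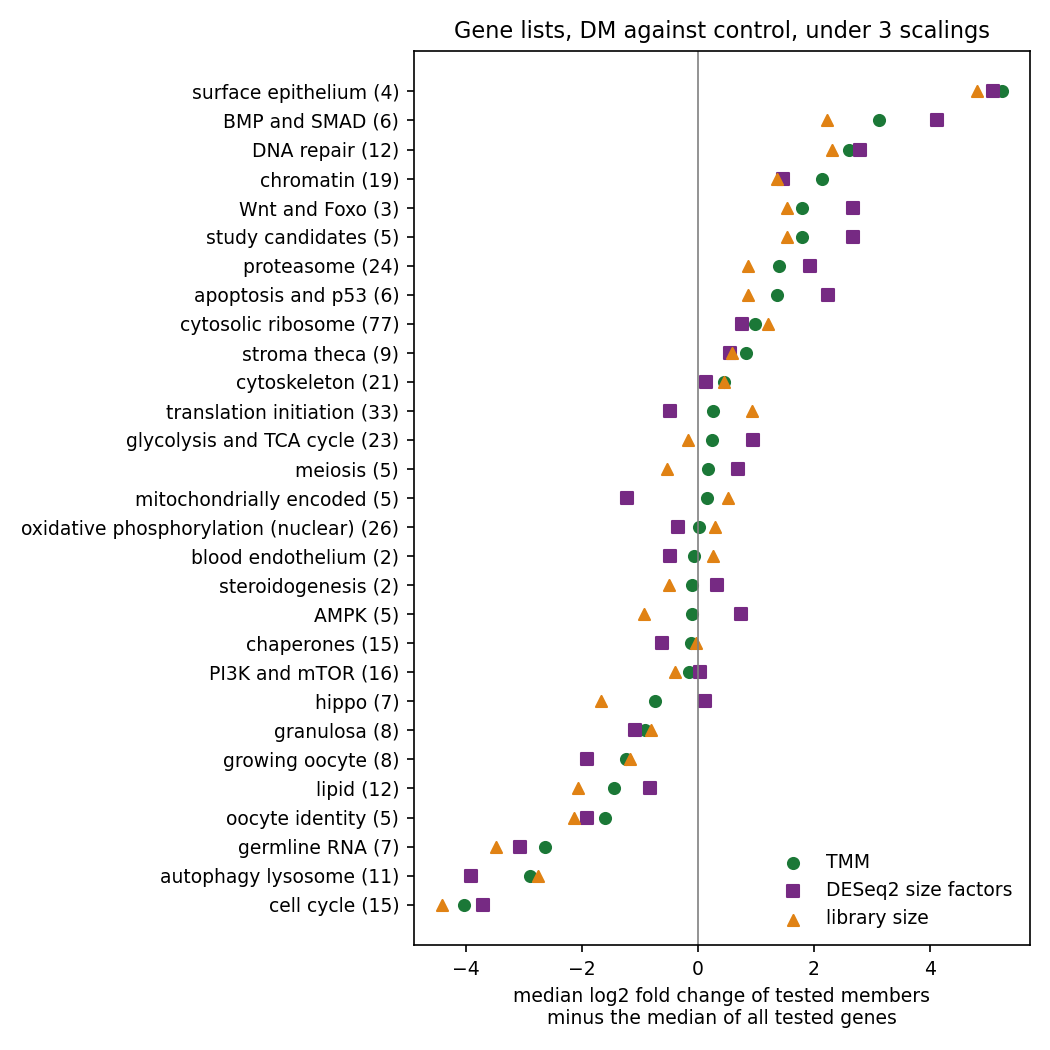
Median log2 fold change of the tested members of each list, DM against control, minus the median of all tested genes (horizontal axis), with TMM (circles), DESeq2 size factors (squares) and library size (triangles) and the number of tested members in brackets. The cell cycle, autophagy and germline RNA lists lie lowest and surface epithelium highest under each scaling, while lists near 0 such as AMPK change side.

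The same comparison was available in oocytes of primordial follicles, in 6 libraries that share none with those above. Of the 508 genes with an unadjusted p under 0.05 in primary follicles, 442 were tested there, and 244 of them (55.2%) had the same direction, against 50.8% of the 3838 genes tested in both stages. At an unadjusted p under 0.05 in both stages there were 35 genes, which is 6.89% of those of primary and 7.13% of the 491 of primordial follicles, and 25 had the same direction. The interaction of stage and DM, tested over 12 libraries, had no adjusted p under 0.05 among 8500 genes (1605 at an unadjusted p under 0.05). Of the named genes 60 were in that test, and 21 had an unadjusted p under 0.05. Most named genes were chosen by their values in the primary-follicle libraries, which also enter the interaction. That choice alone can raise this count and the ranking below, so nothing is drawn from either.

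*Mcm4* was the named gene with the smallest interaction p (0.00231, adjusted p = 0.115). In primordial follicles it had 1269, 45 and 30 counts after DM against 4438, 61 and 30 in the controls, with a log2 fold change of -0.82 (SE 2.89). *Tubb2a* had log2 fold changes of -11.51 in primary and -9.98 in primordial follicles, with an interaction p of 0.681 (unadjusted). The difference between the stages did not pass the test for any named gene.

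The 6 genes with the highest minimum CPM over the libraries did not differ by more than their spread. They were chosen by that minimum, which favours even genes, so they do not stand for abundant transcripts at large. *Actb* was the most abundant gene in all 6 libraries, with 1.85%, 3.30% and 2.06% of counts after DM and 1.39%, 2.06% and 1.36% in the controls, and its log2 fold change was 1.37 (SE 1.91, adjusted p = 0.704). The nuclear RNA *Malat1* had 1.16%, 0.530% and 0.688% against 0.550%, 0.355% and 1.14%, with a log2 fold change of 0.03 (SE 2.13). *Hnrnph1*, *Eif4g2*, *Usp9x* and *Pabpc1*, the other genes with the highest minimum, had log2 fold changes from 0.27 to 0.97, all within 1 SE. *Hnrnph1*, *Eif4g2*, *Usp9x*, *Pabpc1* and *Malat1* changed sign under at least 1 other scaling, setting or left-out library.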

How the data were processed

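Per the labels and the study's methods, RNA of laser-captured oocytes was amplified and sequenced, with both a TruSeq RNA Access and a Smart-seq II preparation described. The authors trimmed reads (Trim Galore), mapped them to mm10 (TopHat2 in the methods, STAR in the submitters' processing notes) and deposited featureCounts counts per gene, not normalized; strand is not given in the sources used here. Of 55401 identifiers 55141 matched a symbol (GENCODE, GRCm38). Here R 4.3.3 and edgeR 4.0.16 (filterByExpr, TMM, quasi-likelihood test, prior count 0.125, Benjamini-Hochberg, threshold 0.05) compared 3 DM with 3 control libraries. DESeq2 1.42.0, other scalings and filters, robust estimation, a 12-library fit, a replicate block and each library left out were alternatives. Exact permutation tests used Python 3.11.15 and limits of a 0 count were 3 counts, which cover counting error only; amplified reads are not independent molecules. Depth was 14034586 to 42639326 counts.

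Named genes are, since no gene had an adjusted p under 0.05, the 8 per direction with the smallest p among genes without overlap and with at most 75% of the higher group's CPM in 1 library, up to 2 such members of each of 29 lists without that limit, the 6 with the highest minimum CPM, the top gene of each library and the study's candidates; further list members were chosen as examples after their values were seen. The lists were surface, oocyte, granulosa, stroma and blood markers, signalling, metabolic, chromatin, cytoskeletal, steroidogenesis (2 of 10 tested, both higher, with wide overlap) and study-candidate genes (5 of 11 tested, 3 higher). Members and lists were chosen with earlier results of these data known. The test scripts were tested on simulated data. A chi-square over genes divided by its degrees of freedom was 1390 or more between libraries of a group, so each counted as 1 sample. Some genes are not reported here.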

Additional observations from a re-analysis of the deposited data

How the results depend on the processing

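No gene had an adjusted p under 0.05 in any edgeR fit tried, and DESeq2 gave 594 of the 9540 genes it tested. At an unadjusted p under 0.05 there were 508 of 4181 genes as reported. The fits tested different numbers of genes, so each count is given with its number tested. It was 1602 of 9540 with DESeq2, 1537 of 14026 with no filter and 191 of 1273 with at least 10 counts in every library. With all 12 libraries in 1 fit it was 1954 of 8500, and with the replicate block 58 of 4181 (2 higher). With low counts set to 0, an alternative added after seeing the data, it was 215 of 3704. When a library was left out it was from 326 of 4848 to 1165 of 6202. With DESeq2's size factors 59.9% of the genes at an unadjusted p under 0.05 were higher after DM, against 33.3% as reported and 15.6% with library size alone. The replicate block rests on replicate numbers, and the labels do not say that these pair the samples. Deviations of same-numbered libraries from their group means correlated at 0.034, -0.056 and 0.0024. With the wide spread between libraries, such values cannot decide whether the samples are paired. The median log2 fold change, 0.31, was 2.04 with DESeq2's size factors, -0.96 with library size, -1.34 with no filter, -0.85 with 12 libraries, -1.09 with the block, -0.55 with low counts set to 0, and -2.45 to 0.93 with a library left out. The share without overlap was 7.86% with no filter. The difference of DM and control in the mitochondrial share of counts (0.0543 percentage points) was -0.0177 without control library 3 and up to 0.117 without another.

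Marker sums (DM minus control, CPM) turned sign for oocyte identity (386) with library-size CPM (-972) and without *Ddx4* (-427), and for granulosa (1853) with library-size CPM (-581) and without *Foxl2* (-652). With a library left out they ranged from -816 to 1010, from -6459 to 8375 and, for stroma and theca (1261), from -1398 to 6566. Of 58 named genes tested, 20 had an adjusted p under 0.05 with DESeq2 and none in any other fit, and 7 changed sign somewhere: *Hnrnph1* with library size (-0.18), with low counts set to 0 (-0.0035) and with a library left out (-1.04 to 2.72), *Eif4g2* with library size (-0.011) and a library left out (-0.12 to 2.17), *Usp9x* with library size (-0.87) and low counts set to 0 (-0.59), *Pabpc1* (-1.60 to 3.09) and *Malat1* (-0.54 to 2.80) with a library left out, *Malat1* (-0.20) and *Foxo3* (0.75) with DESeq2's size factors, *Foxo3* with DESeq2 (0.63), and *Sirt1* with the block (-1.53) and without DM library 2 (-6.93 to 4.11 over the libraries left out). The cause of these changes was not tested. With 3 libraries a group and the spread seen here, differences of a few log2 units were not detectable. Far larger ones did not pass edgeR's test either, such as that of *Mcm4* (log2 fold change -11.53, adjusted p = 0.395).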
